A study of Mus musculus with 24 samples.

Results

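The cytochrome P450 genes of mouse kidney were described here across genotype and ureteral obstruction. Members were all gene symbols of the deposited count table with the form Cyp, number, letters, number, except the vitamin D hydroxylases Cyp27b1 and Cyp24a1. This gave 92 of 23955 symbols, in 15 families and 37 subfamilies (a subfamily is the number with the letters, such as Cyp4a). Another 12 P450 symbols were outside the rule, among them Cyp51 and the Cyp4a12 pair. The 24 libraries were 4 in each of 6 groups: kidneys labelled Pld4 knockout (KO, PLD4-/-) and wild type (WT, PLD4+/+), each after 5 or 10 days of ureteral obstruction on 1 side (UUO, day 5 and day 10) or at day 0, the control. UUO is a surgical model in which 1 ureter is tied and the kidney above it becomes fibrotic. Pld4 encodes phospholipase D4, an endolysosomal protein of myeloid cells. The labels do not give the age, sex or strain of the mice, the knockout allele, or whether the day 0 mice had surgery. They do not say that the 4 replicates of a group were separate animals, so p-values measure only the spread between these libraries. That spread may be technical, except that in KO at day 0 replicate 4 differed from the others in sex-linked transcripts (below).

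Cytochrome P450 enzymes hold a heme group on a conserved cysteine and put an atom of oxygen into their substrate, with electrons from P450 reductase in the endoplasmic reticulum or from ferredoxin in mitochondria. Families 1 to 3 act largely on drugs, solvents and other foreign compounds, family 4 hydroxylates fatty acids and leukotrienes, the Cyp2j and Cyp2c enzymes make epoxides from arachidonic acid, and the higher-numbered families act on sterols, bile acids, steroid hormones and retinoic acid. In the kidney most P450 protein is in the proximal tubule, where products of arachidonic acid affect salt transport and vessel tone, and several P450 genes of mouse kidney are known to depend on sex hormones.

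The heme site, the stretch around the cysteine that holds the heme, is shown for members of several subfamilies because it is the part of the enzyme that all of them share. The sites were read from GENCODE M21 transcripts by searching the longest open reading frame for the family's heme-binding motif, which was found in 82 of 90 members with a coding transcript. Each stretch has 30 bases, 5′ to 3′, with the codon of the heme-binding cysteine in capitals.
Cyp4a10 heme site: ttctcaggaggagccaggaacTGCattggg
Cyp4a14 heme site: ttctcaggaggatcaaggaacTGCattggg
Cyp4b1 heme site: ttttctgcagggcccaggaatTGCattggg
Cyp4f18 heme site: ttctcggctgggcccaggaacTGCatagga
Cyp2e1 heme site: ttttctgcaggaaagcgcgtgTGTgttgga
Cyp2j5 heme site: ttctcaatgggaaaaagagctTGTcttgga
Cyp2j13 heme site: ttttcaatgggaaagcgagctTGCctcgga
Cyp2d9 heme site: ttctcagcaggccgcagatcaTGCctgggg
Cyp1b1 heme site: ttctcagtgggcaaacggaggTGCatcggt
Cyp26b1 heme site: tttggcggtggcgtgcggaccTGCctgggc
Within a subfamily these stretches differed at 0 to 5 bases in the pairs compared. Cyp4a31 and Cyp4a32 differed from Cyp4a10 at 0 of the 30 bases and Cyp4a14 at 2. Cyp2d22 and Cyp2d26 differed from Cyp2d9 at 0 and Cyp2d12 at 1, Cyp2a4 and Cyp2a5 were identical, and Cyp2j5 and Cyp2j13 differed at 5. Between subfamilies of family 4, Cyp4b1 differed from Cyp4a10 at 6 bases. Between families, Cyp4b1 differed from Cyp2e1 at 12, from Cyp1b1 at 13 and from Cyp26b1 at 15. Over whole transcripts, 43.8% of the 50-base windows of Cyp4a32, 38% of those of Cyp2a4 and 21.8% of those of Cyp2d9 also occurred in another gene. Likeness at the heme site did not carry over to whole transcripts in every case, since the share was 0.235% for Cyp4a14, 4.13% for Cyp2d22 and 9.49% for Cyp2d26. How reads with several matches were counted is not given in the sources used here. The split of reads within Cyp2a, Cyp2c, Cyp2d and Cyp4a, between Cyp4f16 and Cyp4f37, and between Cyp4b1 and its pseudogene Cyp4b1-ps2, is therefore uncertain. Of the windows of Cyp4f16 17.4% also occurred in another gene, mostly Cyp4f37, and of those of Cyp4v3 7.02% did. Cyp4a32 averaged 28.1 ± 7.01 FPKM in WT day 0 kidneys by the authors' table (SD, n = 4) but only 0.827 ± 0.224 in counts scaled as below (CPM). Its ratio of CPM to FPKM was 0.0294, against 1.56 to 10.3 in the other 42 tested members (2.68 to 5.18 in Cyp2d), so its calls below are uncertain. Cyp4b1-ps2, outside the rule, was 141 to 203 FPKM but 0.269 to 0.602 CPM in the same libraries, and shared 97 windows with Cyp4b1. The FPKM level of Cyp4b1 is open to the same doubt, though its own ratio was 3.4.

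Of the 92 members, 43 in 24 subfamilies had enough reads for a test. Another 33 had reads but were under the filter, with at most 85 counts in all 24 libraries (Cyp17a1, a steroid hydroxylase of gonad and adrenal), and 16 had no read. Total counts were 9800888 to 22542866 per library. Levels are given as CPM (counts scaled to a common library size after TMM normalisation) for 1 gene across libraries, and as FPKM (fragments scaled to gene length and library size) between genes. "Higher" and "lower" refer to genes with an adjusted p under 0.05 by edgeR's quasi-likelihood test over 15080 genes, and fold changes are log2 values ± SE.

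Several libraries stood apart, and results resting on them are also given without them. KO day 0 replicate 4 had 879 CPM of Xist, an RNA made from the inactive X chromosome of females, against at most 0.692 CPM in the other 23 libraries. Its Ddx3y, from the Y chromosome, was 0.390 CPM against 58.0 to 98.9 CPM elsewhere. WT day 10 replicates 2 and 3 had 991 and 2141 CPM of the neutrophil gene S100a8, against at most 3.83 CPM in the other 22 libraries. Their Slc34a1, the phosphate transporter of the proximal tubule, was 26.2 and 187 CPM, against 1046 and 2686 CPM in replicates 1 and 4. Pld4 itself was not absent from the libraries labelled KO. It was 13.4 to 32.6 CPM in KO and 46.6 to 50.9 CPM in WT at day 5, and 24.3 to 50.3 CPM in KO and 54.6 to 118 CPM in WT at day 10. The difference passed the test at day 10 (-1.13 ± 0.27, adjusted p = 0.0331) but not at day 5 (-1.25 ± 0.27, adjusted p = 0.0724). At day 0 Pld4 was 6.70 to 12.6 CPM in KO and 5.10 to 8.25 CPM in WT (adjusted p = 0.438). Which part of Pld4 was deleted is not given in the labels, so these reads do not check the deletion, and KO below means the libraries labelled so.

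In kidneys at day 0 a few subfamilies held nearly all RNA of the 92 members. Cyp4b, which is Cyp4b1 alone, an enzyme for fatty acids and foreign compounds, was the most abundant at 1201 ± 822 FPKM in KO and 1524 ± 248 FPKM in WT (SD, n = 4 each, as for all such values). The wide spread in KO came with 1 low library, replicate 4. Next in WT came Cyp2e at 870 ± 42.2 FPKM, against 478 ± 316 FPKM in KO. Cyp2e1, its sole member, oxidises ethanol and small solvents. The 7 Cyp2j genes together summed to 574 ± 76.6 FPKM in KO and 567 ± 21.7 FPKM in WT. Cyp4a, the peroxisome proliferator-regulated fatty acid hydroxylases, summed to 590 ± 189 FPKM in KO and 396 ± 117 FPKM in WT. This leaves out Cyp4a12a and Cyp4a12b, outside the naming rule, at 22.1 to 85.8 and 15.4 to 27.7 FPKM in WT. In WT the Cyp4a sum and the Cyp2a sum (323 ± 30.7 FPKM) did not differ beyond their spread. Nor did Cyp7b (192 ± 43.3 FPKM) and Cyp2d (172 ± 22.8 FPKM). Among the members a gap followed, with Cyp4f at 21.6 ± 1.98 FPKM and Cyp27a at 17.4 ± 1.59 FPKM in WT. Cyp51, outside the naming rule, lay in this gap at 61.3 to 80.3 FPKM in WT. Cyp2c, with 15 members the largest subfamily, reached only 7.04 ± 0.501 FPKM in WT, nearly all of it Cyp2c44. Cyp1b was 1.79 ± 0.366 FPKM and Cyp4v 1.43 ± 0.352 FPKM in WT. The steroid hormone families 11, 17, 19 and 21 stayed at or under 0.145 FPKM as group means in all 6 groups. Cyp2g, Cyp2t, Cyp2w, Cyp7a and Cyp19a were listed at 0 in every group.

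Within the abundant subfamilies 1 or a few genes made up most of the level. In WT day 0 kidneys Cyp2j5, an arachidonic acid epoxygenase, was 363 ± 13.0 FPKM, Cyp2j11 115 ± 11.6 FPKM and Cyp2j13 68.7 ± 13.6 FPKM. Cyp4a10 was 176 ± 51.6 FPKM and Cyp4a31 147 ± 18.4 FPKM in the same libraries, which overlapped in spread. Cyp2d9, a testosterone hydroxylase, was 86.5 ± 16.2 FPKM and Cyp4f13, the highest Cyp4f gene, 15.1 ± 1.40 FPKM.

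RNA of the P450 members as a whole was a smaller share of all RNA after obstruction. The 92 members held 1.05 ± 0.288% of all counts in KO day 0 kidneys, 0.468 ± 0.086% at day 5 and 0.353 ± 0.115% at day 10. In WT they held 1.22 ± 0.059% at day 0, 0.454 ± 0.171% at day 5 and 0.254 ± 0.225% at day 10. The markers of the proximal tubule fell at the same time: of the 15 on the list, 14 were lower in KO and 15 in WT at day 10, and none was higher. The summed P450 level was a nearly constant share of the summed level of these 15 markers, at 33.5% to 42.9% in 21 of the 24 libraries. The exceptions were the 3 libraries that stood apart. KO day 0 replicate 4 was at 21.1%, with 7276 CPM of P450 and 34490 CPM of tubule markers. WT day 10 replicate 2 was at 123%, with 819 and 667 CPM, and replicate 3 at 68.8%, with 1074 and 1560 CPM. In whole-kidney RNA, fewer cells of a type and less RNA per cell cannot be told apart.

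**Figure D1:**
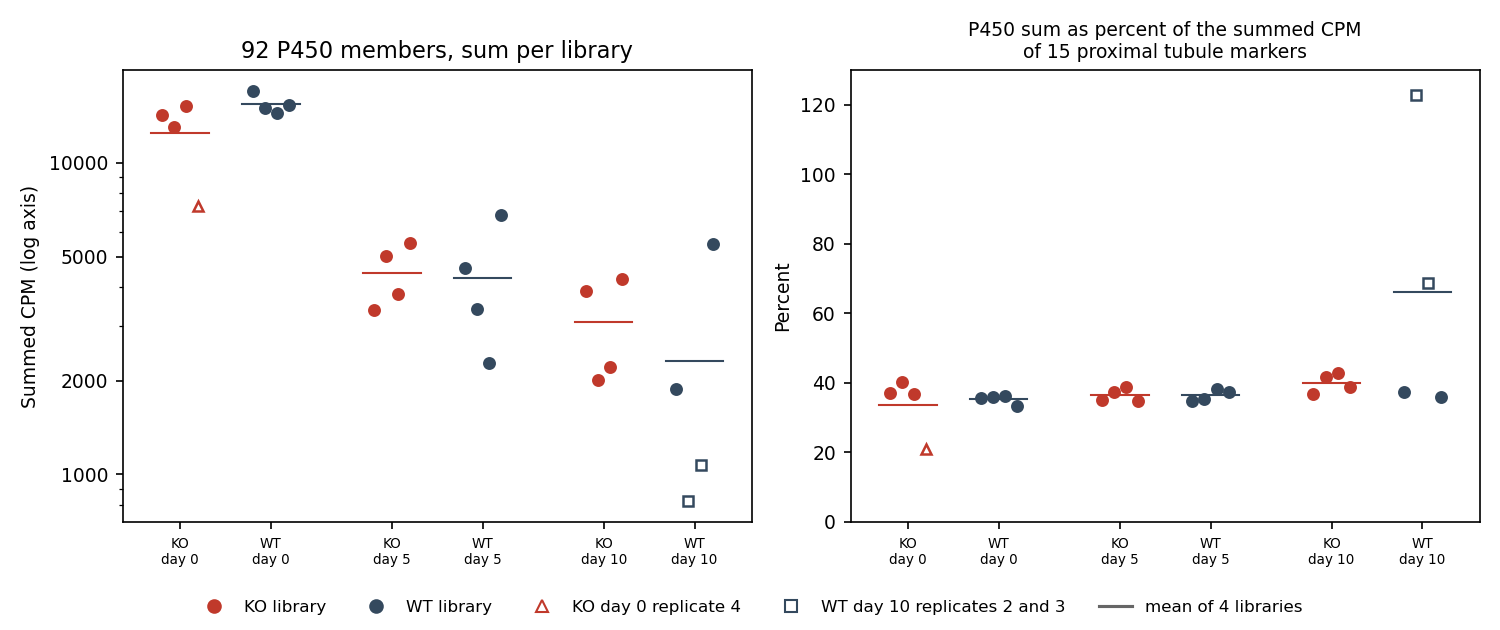
P450 RNA by library in the 6 groups, as the summed CPM of the 92 members on a log axis and as a percentage of the summed CPM of 15 proximal tubule markers. Points are libraries (KO red, WT blue), bars are means of 4, and open symbols are the 3 libraries that stood apart; the percentage lies between 33.5% and 42.9% in all others.

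After obstruction more P450 genes were lower than higher by the test on counts, most widely at day 10. In KO, 5 tested members were higher and 8 lower at day 5, where 39.5% of all genes tested were called (22.4% higher and 17% lower). At day 10 in KO 6 were higher and 20 lower, against 54.3% of all genes (28.3% higher and 26% lower). In WT 7 were higher and 15 lower at day 5, against 56.6% of all genes (31% and 25.6%). At day 10 in WT 6 were higher and 25 lower, against 68.1% of all genes (37.8% and 30.3%). As shares of the 43, those lower were 18.6%, close to the background, at day 5 in KO, and 46.5% at day 10. In WT they were 34.9% at day 5 and 58.1% at day 10, while those higher (11.6% to 16.3%) were below the background in all 4 comparisons. The median log2 change of the 43 was -0.89 at day 5 and -1.23 at day 10 in KO, and -0.76 and -1.44 in WT, against 0.01 to 0.12 for all genes tested. Without the 3 libraries that stood apart 6 were higher and 20 lower at day 5 in KO, against 46% of all genes called, and 6 and 24 at day 10, against 57.4%. In WT 7 were higher and 20 lower at day 5 without them, against 61.9% of all genes. Without them 7 were higher and 18 lower at day 10 in WT, against 57.5% of all genes, and the median there was -0.53. Leaving out only WT day 10 replicate 2 gave 23 calls at day 5 in KO, and leaving out only replicate 4 gave 24. For fits with 1 library left out, here and below, the share of all genes called is not given. Such counts therefore have no background beside them. On the FPKM scale, where the median of all genes moved up by 0.357 to 0.618, more members counted as higher. By limma on log2(FPKM + 1) of 35 members, 9 were higher and 6 lower at day 5 and 9 and 13 at day 10 in KO, and 10 and 8 at day 5 and 10 and 19 at day 10 in WT. On that scale the shares of all genes called higher and lower were 60.5% and 2.83% at day 5 and 61.9% and 8.31% at day 10 in KO, and 62.3% and 6.75% at day 5 and 61.3% and 15.1% at day 10 in WT. The 4 comparisons use 2 sets of day 0 libraries, 1 for each genotype, so day 5 and day 10 are not independent.

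Across the 4 comparisons 36 of the 43 were called at least once, 8 of them higher, 28 lower and none in both directions. Cyp1b1, Cyp3a13, Cyp4f16 and Cyp4v3 were higher in all 4. Cyp2d9, Cyp2d12, Cyp2d26, Cyp2f2, Cyp4f13 and Cyp4f14 were lower in all 4, although Cyp4f13 lay above day 0 at day 5 in both genotypes on the FPKM scale. The 7 called in none were Cyp2a5, Cyp2b10, Cyp4f17, Cyp4f39, Cyp26a1, Cyp39a1 and Cyp46a1. Of these Cyp2b10 was lower at day 10 in KO without the 3 libraries that stood apart (-3.25, adjusted p = 0.0277). That call rested on few reads, 5 at day 10 against 26 at day 0 in KO. Of the 26, 19 were in KO day 0 replicate 3.

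**Figure D2:**
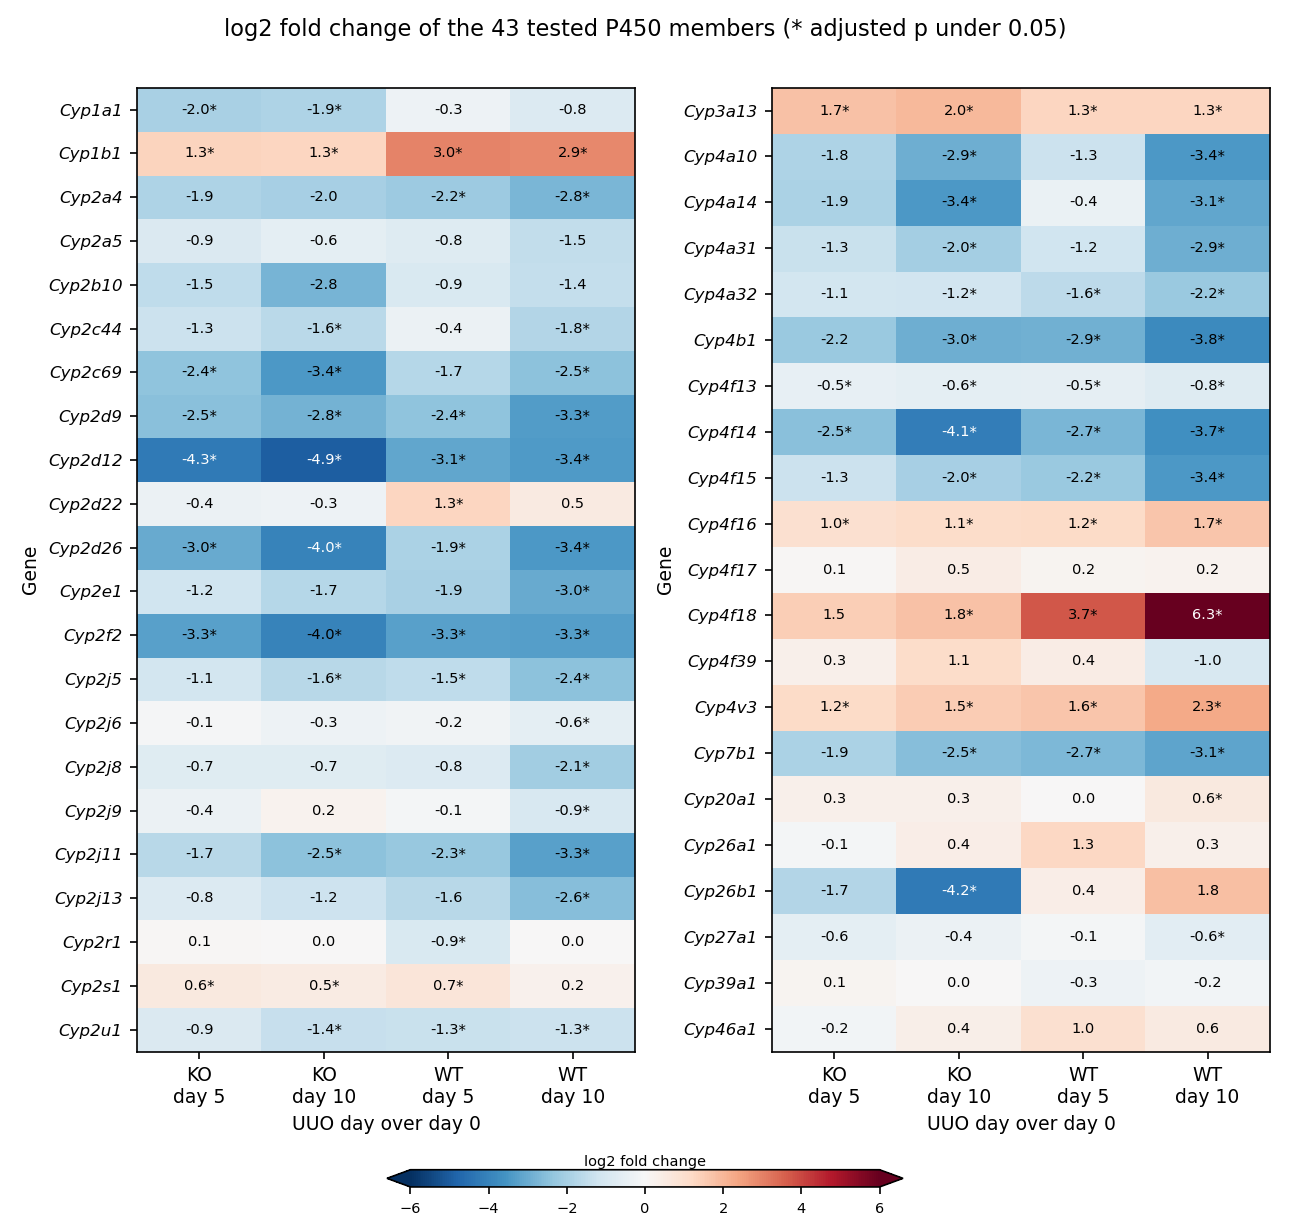
Log2 fold change of the 43 tested P450 genes (vertical, by subfamily) for UUO day 5 and day 10 against day 0 in KO and in WT. Blue is lower, red is higher and an asterisk marks an adjusted p under 0.05; more asterisks are on blue cells than on red ones, and those of Cyp1b1, Cyp3a13, Cyp4f16 and Cyp4v3 are on red cells.

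Among the fatty acid hydroxylases Cyp4b1 had the largest fall at day 10 in WT, by the fitted change of all 43. It was 5309, 3218, 5891 and 358 CPM in KO at day 0 (replicates 1 to 4, as below), 498, 1060, 468 and 1179 CPM at day 5, and 641, 208, 257 and 805 CPM at day 10. WT libraries had 6209, 5295, 3813 and 5429 CPM at day 0, 939, 428, 161 and 1243 CPM at day 5, and 209, 42.3, 66.2 and 1136 CPM at day 10. Every obstructed library lay below every day 0 library except KO replicate 4. The log2 change was -2.95 ± 0.90 at day 10 in KO (adjusted p = 0.00914), and in WT -2.90 ± 0.90 at day 5 (adjusted p = 0.00965) and -3.84 ± 0.94 at day 10 (adjusted p = 0.00118). At day 5 in KO it was -2.20 ± 0.87 and just missed the test (adjusted p = 0.0501), and without the 3 libraries that stood apart it was -2.58 (adjusted p = 0.0024).

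The Cyp4a genes fell at day 10 in both genotypes, all 4 tested members in each. At day 5 the counts were 0 of 4 in KO and 1 of 4 in WT. Without the 3 libraries that stood apart they were 2 and 3 of 4 at day 5, and 3 of 4 in each genotype at day 10. Among all genes tested, with all libraries, 17% and 26% were lower at day 5 and day 10 in KO. In WT 25.6% and 30.3% were, so 1 of 4 was near the background. Cyp4a10 was 715, 1015, 564 and 845 CPM in KO at day 0, 199, 181, 237 and 255 CPM at day 5, and 161, 40.0, 81.6 and 133 CPM at day 10. The WT values were 646, 478, 777 and 396 CPM at day 0, 153, 262, 150.03 and 374 CPM at day 5, and 29.0, 0.913, 3.69 and 180.3 CPM at day 10. No obstructed library reached the day 0 range of its genotype, and the 2 lowest values were WT day 10 replicates 2 and 3. The change was -2.92 ± 0.88 at day 10 in KO (adjusted p = 0.00876) and -3.42 ± 0.91 in WT (adjusted p = 0.00225). It was -1.85 ± 0.85 at day 5 in KO and -1.29 ± 0.84 in WT (adjusted p = 0.0881 and 0.192), and -1.80 and -1.25 without the 3 libraries, both past the test (adjusted p = 0.00516 and 0.0222). Cyp4a31 changed by -2.02 ± 0.64 at day 10 in KO and -2.94 ± 0.66 in WT. Cyp4a14, a close relative, varied widely among day 0 libraries, at 127, 729, 93.0 and 1151 CPM in KO and 213, 127, 484 and 43.9 CPM in WT. It was lower at day 10 in KO (-3.44 ± 1.17) and in WT (-3.10 ± 1.16, adjusted p = 0.0223), and in WT the call was lost without the 3 libraries (-2.10, adjusted p = 0.105). Leaving out KO day 0 replicate 4 or KO day 10 replicate 2 or 3 also ended the call in KO (adjusted p = 0.0504 to 0.0585), and leaving out WT day 0 replicate 3 or WT day 10 replicate 1 or 3 ended it in WT (adjusted p = 0.0552 to 0.0832). For Cyp4a32 the call at day 10 in KO was lost without them (-0.39, adjusted p = 0.451), and without KO day 0 replicate 4 or KO day 10 replicate 1, 2 or 4 alone (adjusted p = 0.0579 to 0.452).

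**Figure D3:**
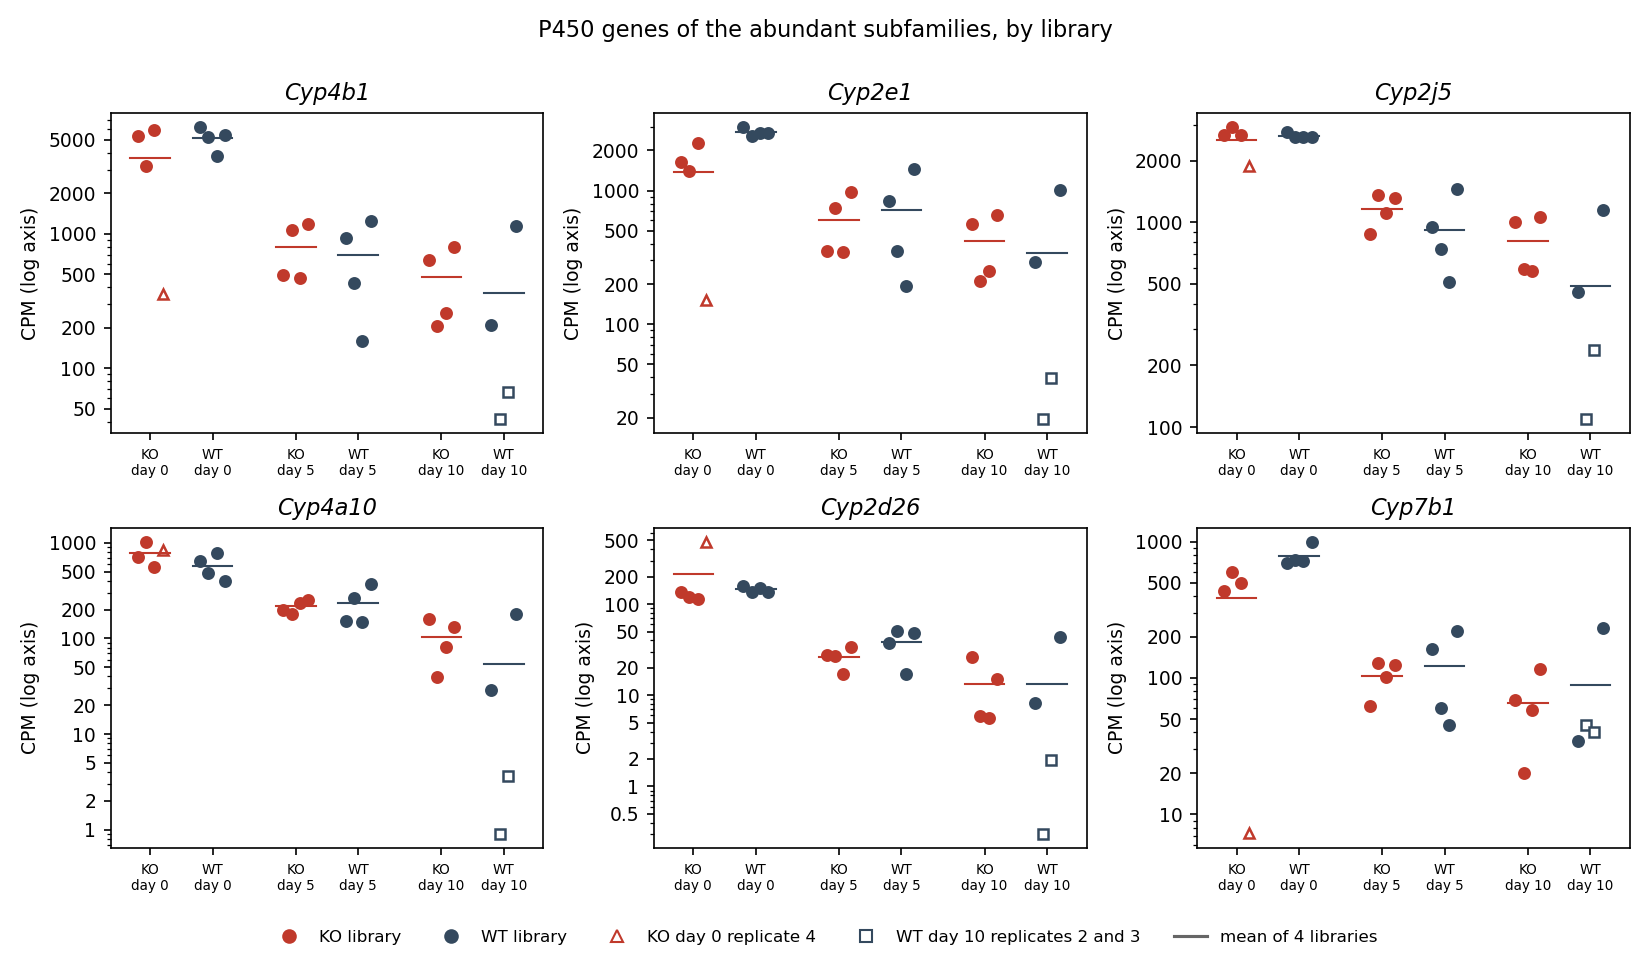
CPM on a log axis by library for 6 P450 genes of the abundant subfamilies, Cyp4b1, Cyp2e1, Cyp2j5, Cyp4a10, Cyp2d26 and Cyp7b1. Points are libraries (KO red, WT blue) and bars are means of 4; open triangles are KO day 0 replicate 4, which is low for Cyp4b1, Cyp2e1 and Cyp7b1 and high for Cyp2d26, and open squares are WT day 10 replicates 2 and 3.

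The Cyp4f genes, several of which oxidise leukotriene B4, did not move as 1 group. Of the 7 tested, 2 were higher and 3 lower at day 10 in KO and at both days in WT, and 1 was higher and 2 lower at day 5 in KO. Among all genes tested 22.4% were higher and 17% lower at day 5 and 28.3% and 26% at day 10 in KO. In WT 31% and 25.6% were at day 5 and 37.8% and 30.3% at day 10. The Cyp4f counts higher were thus near or below the background. Cyp4f14, a leukotriene B4 hydroxylase, was 2.51 to 9.90 CPM in KO at day 0, 0.350 to 1.08 CPM at day 5 and 0 to 0.569 CPM at day 10. In WT it was 2.59 to 3.70, 0.138 to 0.864 and 0.0507 to 0.688 CPM at the same days. Its log2 change at day 10 was -4.14 ± 0.73 in KO (adjusted p = 9.67e-05) and -3.67 ± 0.74 in WT (adjusted p = 0.000183), on few reads. Cyp4f15 fell at day 10 in KO (-1.98 ± 0.62) and at both days in WT (-2.20 ± 0.60 and -3.43 ± 0.67), the call in KO being lost without KO day 0 replicate 1 (-1.47, adjusted p = 0.0687). It too had few reads, 14 at day 10 against 38 at day 0 in KO and 7 against 49 in WT, all libraries together. At day 5 in KO it was -1.28 (adjusted p = 0.0832), and -1.57 and past the test without KO day 0 replicate 4 (adjusted p = 0.0414). Cyp4f13 moved least of the genes lower in all 4, by -0.50 to -0.76, and the direction at day 5 was the opposite by limma on log2(FPKM + 1) (0.11 in KO and 0.05 in WT). Cyp4f16 went the other way. It was 8.25 to 13.7 CPM in KO at day 0, 17.99 to 20.9 CPM at day 5 and 19.2 to 23.2 CPM at day 10. WT libraries had 6.62 to 12.4, 16.5 to 25.3 and 19.3 to 35.4 CPM. The rise was 0.96 ± 0.21 and 1.11 ± 0.21 at day 5 and day 10 in KO, and 1.17 ± 0.21 and 1.65 ± 0.21 in WT, with no overlap between obstructed and day 0 libraries in either genotype.

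Cyp4f18, known in mouse neutrophils as a leukotriene B4 hydroxylase, was at 104 and 91.3 CPM in WT day 10 replicates 2 and 3, against 8.63 and 7.72 CPM in replicates 1 and 4. In KO it was 3.87, 3.22, 2.44 and 2.10 CPM at day 0, 10.6, 7.84, 7.09 and 6.45 CPM at day 5, and 9.46, 8.203, 8.93 and 12.9 CPM at day 10. The WT values were 0.605, 0.510, 0.718 and 0.859 CPM at day 0 and 8.32, 8.55, 12.02 and 6.86 CPM at day 5. All obstructed libraries lay above all day 0 libraries of their genotype. The change was 6.28 ± 0.73 at day 10 in WT (adjusted p = 3.79e-07), and 3.62 without replicates 2 and 3. It was 3.71 ± 0.71 at day 5 in WT and 1.77 ± 0.60 at day 10 in KO (adjusted p = 0.000207 and 0.0164). At day 5 in KO it was 1.47 ± 0.60 (adjusted p = 0.0553), and past the test at 1.48 without WT day 10 replicates 2 and 3 (adjusted p = 3.06e-05) and at 1.35 without all 3 libraries (adjusted p = 0.000205). The summed level of 7 neutrophil markers was 11.7 to 22.4 CPM in KO day 10 kidneys and 26.5 to 6665 CPM in WT day 10 kidneys, and its part in the Cyp4f18 values was not tested. Cyp4v3, a fatty acid hydroxylase related to human CYP4V2, rose in all 4 comparisons, by 1.17 ± 0.21 and 1.54 ± 0.21 in KO and by 1.64 ± 0.21 and 2.28 ± 0.22 in WT. It was 9.90 to 16.5 CPM in KO at day 0, 24.3 to 30.5 CPM at day 5 and 31.5 to 40.8 CPM at day 10. In WT it was 6.12 to 10.4, 21.2 to 27.02 and 28.3 to 59.6 CPM, and the groups at day 0 did not overlap with the obstructed ones.

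Among the arachidonic acid epoxygenases, the number of Cyp2j genes lower was 0 of 6 at day 5 and 2 of 6 at day 10 in KO, and 2 of 6 at day 5 and 6 of 6 at day 10 in WT. Without the 3 libraries that stood apart it was 3 of 6 in each of the 4 comparisons. Among all genes tested, with all libraries, 17% and 26% were lower at day 5 and day 10 in KO. In WT 25.6% and 30.3% were, so a count of 2 of 6 was near the background. Cyp2j5 was 2654, 2911, 2666 and 1876 CPM in KO at day 0, 879, 1365, 1108 and 1313 CPM at day 5, and 1000, 590.4, 580.3 and 1060 CPM at day 10. WT libraries had 2755, 2619, 2603 and 2597 CPM at day 0, 945, 744, 512 and 1458 CPM at day 5, and 456, 110.0, 237 and 1146 CPM at day 10. Obstructed and day 0 libraries did not overlap. The change was -1.65 ± 0.47 at day 10 in KO, -1.53 ± 0.46 at day 5 in WT and -2.44 ± 0.48 at day 10 there (adjusted p = 0.00545, 0.00835 and 0.000143), and -1.12 ± 0.46 at day 5 in KO (adjusted p = 0.0581), which was -1.22 and past the test without the 3 libraries (adjusted p = 0.00372). Cyp2j11 followed the same order with larger values, -2.47 ± 0.77 at day 10 in KO and -3.25 ± 0.79 in WT. Cyp2j6 differed from both: it was called only at day 10 in WT (-0.58 ± 0.16), a call lost without the 3 libraries (-0.22, adjusted p = 0.177), and on the FPKM scale its change was 0.01 there and 0.49 at day 5 in KO. Cyp2c44, the epoxygenase that made up most of Cyp2c, was lower at day 10 in KO (-1.63 ± 0.54) and in WT (-1.78 ± 0.55). The call in KO was lost without KO day 0 replicate 4 (-1.08, adjusted p = 0.0986) or KO day 10 replicate 2 (-1.47, adjusted p = 0.0504). That in WT was lost without WT day 10 replicates 2 and 3 (-0.93, adjusted p = 0.0914), but without all 3 libraries that stood apart it was past the test at the same size (adjusted p = 0.0351).

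Cyp2e1 was the clearest case of a large difference between means with a wide spread. It was 1646, 1394, 2272 and 153 CPM in KO at day 0, 351, 738, 348 and 969 CPM at day 5, and 565, 211, 252 and 657 CPM at day 10. The WT values were 2978, 2577, 2710 and 2698 CPM at day 0, 839, 356, 193 and 1458 CPM at day 5, and 295, 19.7, 39.6 and 1008 CPM at day 10. Every obstructed WT library lay below every WT day 0 library, and in KO replicate 4 of day 0 lay below all the obstructed ones. The test was passed at day 10 in WT (-3.01 ± 0.93, adjusted p = 0.00734) and lost there without replicates 2 and 3 (-2.05, adjusted p = 0.0506), though not without all 3 libraries that stood apart (-2.05, adjusted p = 0.0186). The change was -1.18 ± 0.88 at day 5 and -1.70 ± 0.89 at day 10 in KO (adjusted p = 0.293 and 0.112), and -1.95 ± 0.90 at day 5 in WT (adjusted p = 0.0688). Without all 3 it was -1.55 and -2.06 in KO and -1.91 at day 5 in WT, each past the test (adjusted p = 0.0296, 0.0042 and 0.00465).

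The Cyp2d genes fell together apart from Cyp2d22: 3 of 4 tested members were lower in each of the 4 comparisons, against 17% to 30.3% of all genes. Cyp2d26 was 136, 119.7, 114 and 478 CPM in KO at day 0, 27.6, 27.1, 17.3 and 33.7 CPM at day 5, and 26.1, 5.96, 5.59 and 15.03 CPM at day 10. In WT it was 156, 137, 150.1 and 137 CPM at day 0, 37.4, 50.5, 17.3 and 48.2 CPM at day 5, and 8.15, 0.304, 1.94 and 43.01 CPM at day 10. No obstructed library reached the day 0 range. The change was -3.00 ± 0.83 and -4.01 ± 0.87 in KO, and -1.92 ± 0.80 and -3.44 ± 0.85 in WT. The call at day 5 in WT was near the threshold (adjusted p = 0.0457) and was lost in 17 of 24 cases of 1 library left out (-2.04 to -1.64, adjusted p up to 0.128). Cyp2d12 had the largest fall of all 43 in KO, -4.25 ± 1.08 at day 5 and -4.94 ± 1.12 at day 10 (adjusted p = 0.00418 and 0.00104). It was 133 to 356 CPM in KO at day 0, 5.36 to 16.2 CPM at day 5 and 0.826 to 13.0 CPM at day 10. WT libraries had 63.9 to 91.7, 0.691 to 18.01 and 0.102 to 26.7 CPM. Cyp2d9 fell by 2.52 ± 0.83 and 2.85 ± 0.84 in KO and by 2.40 ± 0.83 and 3.34 ± 0.86 in WT on the log2 scale, and the call at day 5 in KO was lost without KO day 0 replicate 1 or KO day 5 replicate 3 (adjusted p = 0.0537 and 0.0631). Cyp2d22, the mouse relative of human CYP2D6, instead rose at day 5 in WT. It was 39.9, 28.4, 29.2 and 31.4 CPM in KO at day 5 and 36.4, 41.2, 28.6 and 58.2 CPM at day 0, and these overlapped. The WT values were 62.8, 64.9, 68.3 and 33.0 CPM at day 5 and 25.9, 23.5, 21.4 and 22.9 CPM at day 0, with no overlap (1.29 ± 0.25, adjusted p = 0.000291). At day 10 in WT its change was 0.53 (adjusted p = 0.0696), and 0.92 and past the test without replicates 2 and 3 (adjusted p = 0.00327).

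Other enzymes of foreign compounds went in both directions. Cyp2a4, a steroid hydroxylase nearly identical to Cyp2a5, was lower in WT at day 5 (-2.19 ± 0.87) and day 10 (-2.75 ± 0.89). The call at day 5 was lost without WT day 0 or WT day 5 replicate 1, 2 or 3 (adjusted p = 0.0545 to 0.103). In KO it was -1.85 ± 0.86 and -1.99 ± 0.86 (adjusted p = 0.0906 and 0.0564), and past the test without the 3 libraries that stood apart (-2.06 and -2.20, adjusted p = 0.00139 and 0.000515). Cyp2f2, best known from airway club cells, was at most 0.283 CPM after obstruction in KO, against 1.07 to 2.32 CPM at day 0, and at most 0.529 CPM after obstruction in WT, against 1.72 to 2.77 CPM at day 0. It fell by 3.26 ± 0.66 and 3.99 ± 0.72 in KO and by 3.28 ± 0.64 and 3.31 ± 0.63 in WT on the log2 scale. Cyp3a13, the only tested Cyp3a gene, rose at a low level. It was 2.95 to 3.75 CPM at day 5 and 3.12 to 4.54 CPM at day 10 in KO, above 0.597 to 1.40 CPM at day 0, and in WT 1.95 to 3.46 and 2.33 to 3.12 CPM, above 0.773 to 1.44 CPM at day 0. The rise was 1.74 ± 0.27 and 1.97 ± 0.27 in KO and 1.30 ± 0.27 and 1.28 ± 0.26 in WT. Cyp2s1 was higher at day 5 in KO (0.58 ± 0.20) and WT (0.75 ± 0.20) and at day 10 in KO (0.49 ± 0.19). At day 10 in WT it was 0.24 (adjusted p = 0.278), and 0.69 without WT day 10 replicates 2 and 3, past the test (adjusted p = 0.000503). Its calls in KO were lost without any of several single libraries, 3 at day 5 (adjusted p = 0.0508 to 0.0744) and 6 at day 10 (adjusted p = 0.0599 to 0.112), KO day 0 replicates 2 and 3 among both. Cyp1a1, the classic target of the aryl hydrocarbon receptor, was lower in KO at day 5 (-1.95 ± 0.62) and day 10 (-1.87 ± 0.61), and -0.29 ± 0.57 and -0.82 ± 0.58 in WT (adjusted p = 0.681 and 0.217). Without KO day 0 replicate 2 both calls in KO were lost (adjusted p = 0.0679 and 0.0639), as was that at day 5 without KO day 5 replicate 3 (adjusted p = 0.0536).

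Cyp1b1, another target of that receptor and an oestradiol hydroxylase made mainly outside the epithelium, rose in all 4 comparisons and by more in WT than in KO (the difference is tested below). It was 54.5, 84.3, 38.5 and 45.2 CPM in KO at day 0, 136, 119.6, 143 and 154 CPM at day 5, and 158, 147, 113 and 128 CPM at day 10. In WT it was 15.1, 22.9, 18.4 and 17.2 CPM at day 0, 138, 185, 135 and 120.1 CPM at day 5, and 97.6, 190.4, 154 and 103 CPM at day 10. The groups at day 0 lay apart from each other and from all obstructed libraries, and the obstructed ones overlapped between genotypes. The rise was 1.32 ± 0.23 and 1.30 ± 0.23 in KO (adjusted p = 0.000151 and 9.82e-05), and 2.97 ± 0.24 and 2.89 ± 0.24 in WT (adjusted p = 8.83e-09 and 5.56e-09). Fibroblast markers rose too, 4 of 4 in each of the 4 comparisons, and their part in the Cyp1b1 values was not tested.

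**Figure D4:**
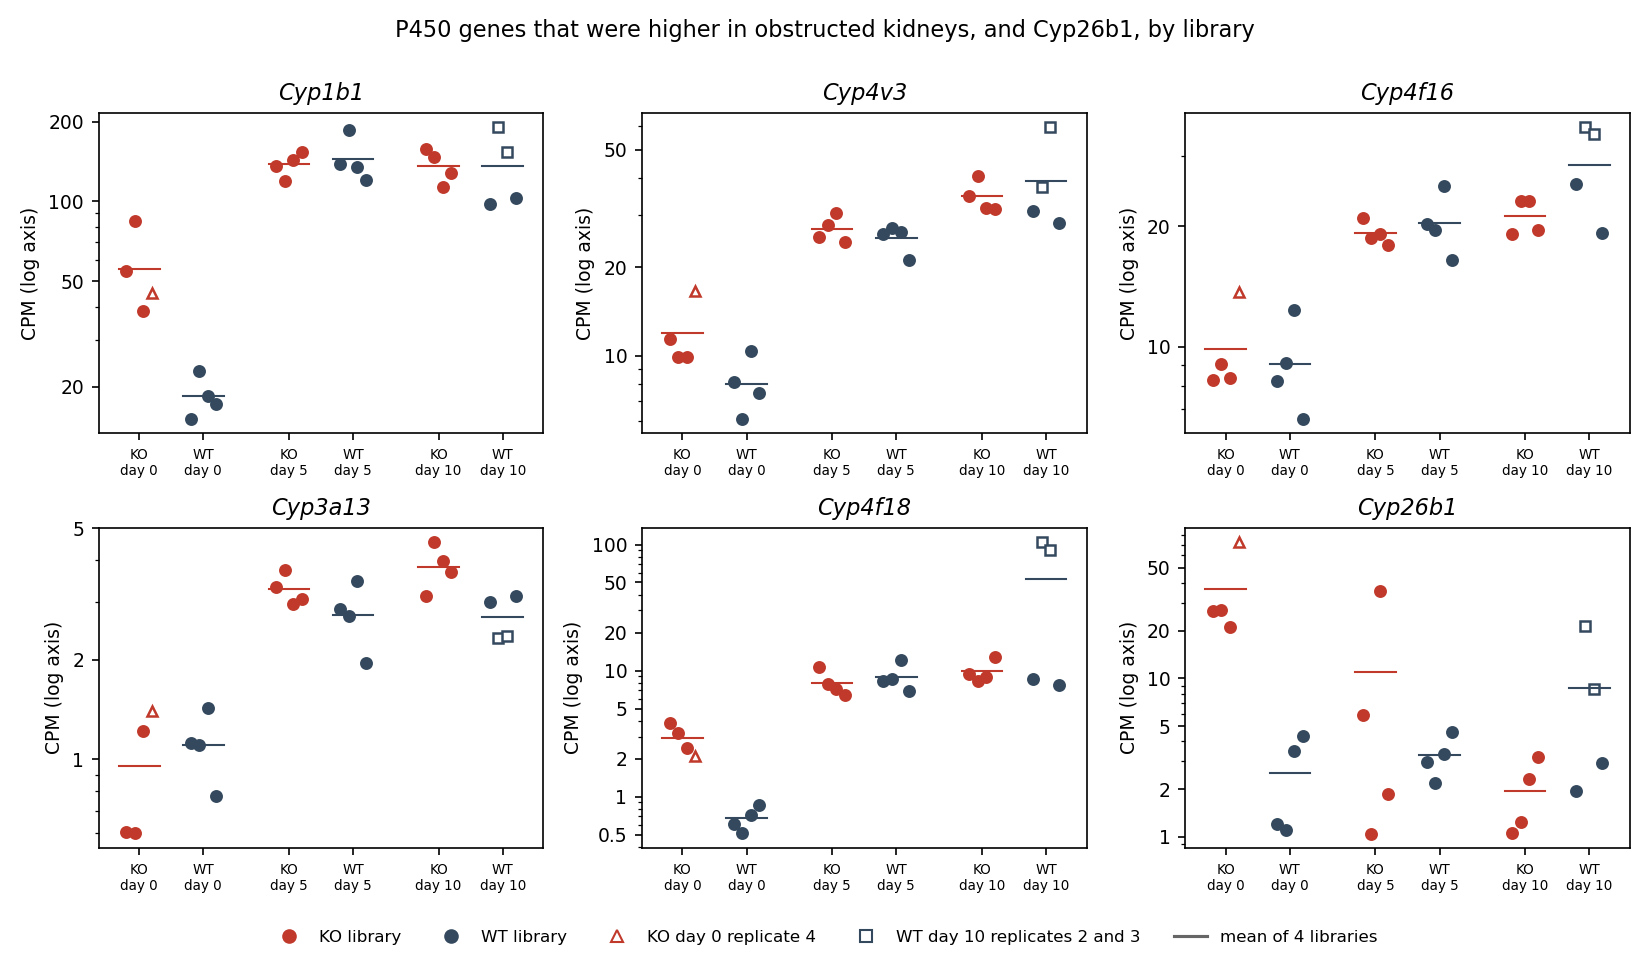
CPM on a log axis by library for Cyp1b1, Cyp4v3, Cyp4f16, Cyp3a13, Cyp4f18 and Cyp26b1, with points for libraries (KO red, WT blue) and bars for means of 4. Cyp1b1 and Cyp26b1 are above WT in every KO library at day 0, and Cyp4f18 reaches 104 and 91.3 CPM in WT day 10 replicates 2 and 3 (open squares).

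Promoters of 4 genes are shown because these genes moved in different ways: Cyp1b1 up and Cyp2e1 and Cyp2j5 down after obstruction, and Cyp26b1 with genotype. Each is the 250 bases before the start of the gene on its own strand, from RefSeq on GRCm38.p6, a later build than the mm9 of the submitters' processing notes. They lie at chr17:79715062-79715311 (-) for Cyp1b1, chr7:140763569-140763818 (+) for Cyp2e1, chr4:96664120-96664369 (-) for Cyp2j5 and chr6:84593811-84594060 (-) for Cyp26b1. Capitals mark the core of the aryl hydrocarbon response element, GCGTG on either strand, in Cyp1b1. In the others they mark the letters of a TATA box, TATAAA, at any position and on either strand. In Cyp2j5 that match is on the opposite strand.
Cyp1b1 promoter: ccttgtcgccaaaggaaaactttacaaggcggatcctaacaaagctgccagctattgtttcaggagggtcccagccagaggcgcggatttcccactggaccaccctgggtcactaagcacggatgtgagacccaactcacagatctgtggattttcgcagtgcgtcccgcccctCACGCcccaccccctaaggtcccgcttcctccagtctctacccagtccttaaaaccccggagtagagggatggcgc
Cyp2e1 promoter: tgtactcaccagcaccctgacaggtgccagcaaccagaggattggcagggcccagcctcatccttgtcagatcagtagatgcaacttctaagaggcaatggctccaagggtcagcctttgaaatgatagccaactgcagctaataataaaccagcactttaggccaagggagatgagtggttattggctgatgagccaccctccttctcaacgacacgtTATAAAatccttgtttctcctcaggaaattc
Cyp2j5 promoter: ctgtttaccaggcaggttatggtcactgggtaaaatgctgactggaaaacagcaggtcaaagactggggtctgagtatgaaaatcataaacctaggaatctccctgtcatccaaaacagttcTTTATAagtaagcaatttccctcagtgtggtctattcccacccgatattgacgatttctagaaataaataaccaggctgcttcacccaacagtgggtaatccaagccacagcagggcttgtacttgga
Cyp26b1 promoter: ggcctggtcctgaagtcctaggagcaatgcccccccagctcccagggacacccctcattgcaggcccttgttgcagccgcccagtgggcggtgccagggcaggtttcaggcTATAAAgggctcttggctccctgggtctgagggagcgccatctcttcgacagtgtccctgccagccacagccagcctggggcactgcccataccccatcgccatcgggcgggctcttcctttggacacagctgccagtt
RefSeq gave a promoter for 72 of the 92 members, and for 33 of the 43 tested. GCGTG was in 11 of the 33 and in 28.2% of 27025 mouse promoters of the same length, and TATAAA in 9 of the 33 and in 13% of all. The nuclear receptor half-site AGGTCA was in 2 of the 33, Cyp2f2 and Cyp2j5, and in 13.8% of all. Of the 11 with GCGTG, Cyp1b1, Cyp4f16 and Cyp4v3 rose in all 4 comparisons and Cyp4f14 fell in all 4. Cyp1a1 fell in KO, Cyp2j9 and Cyp2j13 fell and Cyp20a1 rose at day 10 in WT, and Cyp2b10, Cyp46a1 and Cyp4f39 were called in none. A match of letters is a description and not a site of binding.

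Of the sterol and bile acid enzymes, Cyp7b1, the oxysterol 7-alpha-hydroxylase, was abundant and fell. It was 434, 597, 497 and 7.25 CPM in KO at day 0, 62.6, 128, 102 and 124 CPM at day 5, and 69.2, 20.01, 58.5 and 116 CPM at day 10. WT libraries had 694, 736, 719 and 989 CPM at day 0, 162, 60.0, 45.5 and 222 CPM at day 5, and 34.7, 45.2, 40.2 and 233 CPM at day 10. In WT the groups did not overlap, and in KO they did only through replicate 4 of day 0. The change was -2.54 ± 0.83 at day 10 in KO (adjusted p = 0.0138), -2.68 ± 0.83 and -3.15 ± 0.85 in WT (adjusted p = 0.00994 and 0.00266), and -1.88 ± 0.81 at day 5 in KO (adjusted p = 0.0694). Without KO day 0 replicate 4 the change at day 5 in KO was -2.29 and past the test (adjusted p = 0.00811). Cyp27a1, the mitochondrial sterol 27-hydroxylase, passed the test at day 10 in WT alone with all libraries (-0.61 ± 0.24, adjusted p = 0.0298), and not without the 3 libraries that stood apart (-0.09, adjusted p = 0.672) or without WT day 0 replicate 3 or 4 or WT day 10 replicate 2 or 3 alone (adjusted p = 0.0513 to 0.124). In KO it was -0.57 at day 5 and -0.36 at day 10 (adjusted p = 0.0645 and 0.216), and without the 3 libraries -0.58 and -0.36, both past the test (adjusted p = 0.00362 and 0.0419). Cyp39a1, an oxysterol hydroxylase, was 12.6 to 21.6 CPM in all 24 libraries, and Cyp46a1, the cholesterol 24-hydroxylase of brain, 0.849 to 7.05 CPM. Neither passed the test in the 4 comparisons with day 0, but by limma on log2(FPKM + 1) the change of Cyp39a1 at day 10 in WT was 0.37 against -0.18 ± 0.16 by counts. Cyp2r1, the vitamin D 25-hydroxylase, was lower at day 5 in WT (-0.92 ± 0.30, adjusted p = 0.0123), where limma on log2(FPKM + 1) gave 0.05. Cyp7a1 was listed at 0, and Cyp8b1, Cyp11a1, Cyp11b1, Cyp17a1, Cyp19a1 and Cyp21a1 had no or too few reads. The summed level of 9 adrenal markers was 3.63 to 21.2 CPM per library.

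Several other genes of the P450 system were also lower after obstruction. P450 reductase, Por, was 119 to 221 CPM in KO at day 10, against 452, 406, 489 and 447 CPM at day 0. The WT values were 91.9 to 294 CPM at day 10, against 639, 592, 535 and 791 CPM at day 0. It fell by 1.41 ± 0.36 at day 10 in KO and by 1.64 ± 0.37 and 1.95 ± 0.37 at day 5 and day 10 in WT on the log2 scale. Of 8 tested electron transfer genes, 5 and 6 were lower at day 5 and day 10 in KO and 6 and 6 in WT, and 1 was higher, at day 10 in KO. Among all genes tested 17% and 26% were lower at day 5 and day 10 in KO and 25.6% and 30.3% in WT, and 28.3% were higher at day 10 in KO. The mitochondrial pair Fdx1 and Fdxr fell in all 4 comparisons, Fdx1 by 0.85 to 1.93 and Fdxr by 0.70 to 0.87. Of 12 genes of heme synthesis and breakdown, 6 and 9 were lower in KO and 8 and 9 in WT, among them Fech, which inserts the iron (-0.91 ± 0.21, -1.19 ± 0.21, -1.23 ± 0.21 and -1.65 ± 0.21 in the same order). Hmox1, the heme oxygenase, was higher at day 10 in WT (2.40 ± 0.51), and without the 3 libraries that stood apart its change was 0.09 (adjusted p = 0.659).

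Of 15 tested receptors and factors for P450 genes, 3 were higher and 4 lower at day 5 and 4 and 6 at day 10 in KO, and 6 and 7 at day 5 and 5 and 8 at day 10 in WT. Among all genes tested 22.4% were higher and 17% lower at day 5 and 28.3% and 26% at day 10 in KO, and 31% and 25.6% at day 5 and 37.8% and 30.3% at day 10 in WT, so several of these shares, among them those at day 5 in KO, were near the background. Hnf4a, the main factor of epithelial P450 genes, fell by 0.99 ± 0.38 and 1.52 ± 0.38 in KO and by 1.16 ± 0.38 and 2.08 ± 0.39 in WT. Ppara, which drives Cyp4a10 and Cyp4a14 in liver, was lower at day 10 in KO (-1.81 ± 0.52) and in WT (-1.68 ± 0.51, and -0.93 with adjusted p = 0.0897 without the 3 libraries). The aryl hydrocarbon receptor gene Ahr and its repressor Ahrr rose in all 4 comparisons, Ahr by 0.54 to 1.46 and Ahrr by 1.86 to 3.56.

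Between day 5 and day 10 of obstruction few members differed. In KO 0 of 43 were called by edgeR's quasi-likelihood test, against 0.0199% of all genes tested, with 2 at an unadjusted p under 0.05 and 0 by DESeq2. In WT 3 were higher and 0 lower at day 10, against 10.8% of all genes (7.86% higher and 2.93% lower). They were Cyp4f18 (2.57 ± 0.57, adjusted p = 0.00885), Cyp2r1 (0.96 ± 0.29, adjusted p = 0.0372) and Cyp4v3 (0.64 ± 0.20, adjusted p = 0.0468). None was called without replicates 2 and 3 of WT day 10, where Cyp4f18 was -0.14. Leaving out only replicate 4 gave 24 calls, only replicate 1 gave 7, only replicate 3 gave 1 and only replicate 2 gave 0. No share of all genes is given for these fits, so the counts are not a result about the members. Leaving out WT day 5 replicate 1, 2 or 3 gave 1. The Cyp4v3 call was lost without any 1 library of WT day 5, KO day 5 or KO day 10 (adjusted p = 0.0548 to 0.109), though the KO libraries are in neither group. With the replicate number as a block 5 were called, against 12.2% of all genes: Cyp4f18 (2.37) and Cyp2r1 (0.95) stayed higher, Cyp4v3 was lost (0.61, adjusted p = 0.054), and Cyp2c44 (-1.65), Cyp2d22 (-0.81) and Cyp4a31 (-2.08) were lower. By limma on log2(FPKM + 1) 0 were higher and 7 lower, against 4.75% and 5.84% of all genes.

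Few P450 genes passed the test between knockout and wild type kidneys. At day 0 2 of 43 members were higher in KO and 0 lower, against 4.18% of all genes tested, so the share of 4.65% was near the background. Cyp1b1 was 38.5 to 84.3 CPM in KO and 15.1 to 22.9 CPM in WT (1.59 ± 0.23, adjusted p = 0.000441), a difference of about the same size, 1.68, without KO replicate 4 (adjusted p = 0.000852). Cyp26b1, an enzyme that breaks down retinoic acid, was 26.5, 26.9, 21.3 and 72.4 CPM in KO and 1.21, 1.11, 3.50 and 4.30 CPM in WT. Each KO library was far above each WT library, also when replicate 4 is set aside. The difference was 3.86 ± 0.92 (adjusted p = 0.0181), and it missed the threshold without KO replicate 4 (3.29, adjusted p = 0.0648), WT replicate 1 (3.63, adjusted p = 0.0829) or WT replicate 2 (3.61, adjusted p = 0.0659). Without the 3 libraries that stood apart it passed (3.30, adjusted p = 0.0144), and Cyp4f18 passed too (2.23, adjusted p = 4.9e-05), which made 3 members against 6.31% of all genes. Cyp4f18 was 2.10 to 3.87 CPM in KO and 0.510 to 0.859 CPM in WT, a difference of 2.09 ± 0.74 in all libraries (adjusted p = 0.134). The retinal reductase Dhrs3 was also higher in KO (0.61 ± 0.15, adjusted p = 0.0187), the only 1 of 11 tested retinoid genes called. Macrophage markers were higher in KO at day 0, 5 of 7, with a sum of 280.3 to 370 CPM in KO and 144 to 216 CPM in WT. The summed level of 8 liver markers was 62.4 to 109 CPM in KO and 189 to 443 CPM in WT. The part of these markers in the differences was not tested. Leaving out WT day 10 replicate 4, which is in neither group, gave 4 calls at day 0, with no share of all genes given for that fit.

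At day 5 0 of 43 members differed by edgeR's quasi-likelihood test, against 0.146% of all genes, with 6 at an unadjusted p under 0.05 and 0 by DESeq2. Without the 3 libraries that stood apart Cyp2d22 (-0.85) and Cyp2j9 (-1.14) were lower in KO, against 0.836% of all genes, and leaving out only WT day 5 replicate 4 gave 4 calls. At day 10 1 was lower in KO, Cyp4f18 (-2.42 ± 0.56, adjusted p = 0.0307), against 1.41% of all genes. That call rested on WT replicates 2 and 3: without both it was 0.26 (adjusted p = 1.00), without either 1 it was -1.86 and -2.03 (adjusted p = 0.18 and 0.0915), and leaving out any 1 KO day 10 library also ended it (adjusted p = 0.0769 to 0.127). With the replicate number as a block it was -2.14 (adjusted p = 0.129). Leaving out only WT replicate 4 gave 11 calls, with no share of all genes given for that fit.

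The response to obstruction differed between genotypes for 4 members. At day 5 2 of 43 had a lower response in KO, against 0.564% of all genes. For Cyp1b1 the difference was -1.66 ± 0.32 (adjusted p = 0.0192), and it was lost without WT day 0 replicate 1 (-1.58, adjusted p = 0.0643) or KO day 5 replicate 2 (-1.60, adjusted p = 0.0579). For Cyp2d22 it was -1.64 ± 0.36 (adjusted p = 0.0361), and it was lost without KO day 0 replicate 4 (-1.42, adjusted p = 0.0854) and in 12 other cases of 1 library left out. Cyp4f18 did not pass at day 5 (-2.25, adjusted p = 0.298) but did without the 3 libraries that stood apart (-2.41, adjusted p = 0.000959). At day 10 3 of 43 did, against 3.25% of all genes. Cyp1b1 differed by -1.59 ± 0.32 (adjusted p = 0.0102), and by -1.16 without WT day 10 replicates 2 and 3 (adjusted p = 0.0671). Cyp4f18 differed by -4.51 ± 0.92 (adjusted p = 0.0102), and by -1.84 without them (adjusted p = 0.0223). Cyp26b1 differed by -6.01 ± 1.27 (adjusted p = 0.0115), and by -4.19 without them (adjusted p = 0.152). Leaving out only WT day 10 replicate 4 gave 7 calls, with no share of all genes given for that fit. For Cyp26b1 the KO libraries were at 5.89, 1.05, 35.4 and 1.87 CPM at day 5 and 1.06, 1.24, 2.31 and 3.19 CPM at day 10, below day 0 except for 1 library at day 5. The WT libraries were at 2.97, 2.18, 3.32 and 4.59 CPM at day 5 and 1.94, 21.4, 8.53 and 2.91 CPM at day 10. The fall of Cyp26b1 in KO was -4.23 ± 0.93 at day 10 (adjusted p = 0.000782), and the change in WT was 1.78 ± 0.88 (adjusted p = 0.0788). These differences share their day 0 libraries with the comparison of KO and WT at day 0, where Cyp1b1 and Cyp26b1 already stood higher in KO.

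KO day 0 replicate 4, the library with Xist and without Ddx3y, differed from the other 3 KO day 0 libraries in both directions among P450 genes. Of the 35 tested members with a mean of at least 1 CPM in those 3, 6 were 2-fold or more below their mean in replicate 4 and 6 were 2-fold or more above it, 17.1% each. Of the 13463 genes tested with such a mean, 2.3% were that far below and 1.8% that far above. Cyp2j13 was 1.48 CPM in replicate 4 against 346 to 658 CPM in the others, Cyp7b1 7.25 against 434 to 597 CPM and Cyp4b1 358 against 3218 to 5891 CPM. Cyp2e1 was 153 against 1394 to 2272 CPM, Cyp2d9 29.9 against 229 to 316 CPM and Cyp2a4 306 against 613 to 736 CPM. Cyp2d26 was 478 against 114 to 136 CPM, Cyp4a14 1151 against 93.0 to 729 CPM and Cyp26b1 72.4 against 21.3 to 26.9 CPM, so the direction differed between genes of 1 subfamily. Slc34a1 was 7626 CPM in replicate 4, inside the 4925 to 8348 CPM of the others. Slc7a12, a transporter higher in female mouse kidney, was 439.8 CPM against 13.9 to 67.7 CPM. With 1 library this is a description with no test.

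**Figure D5:**
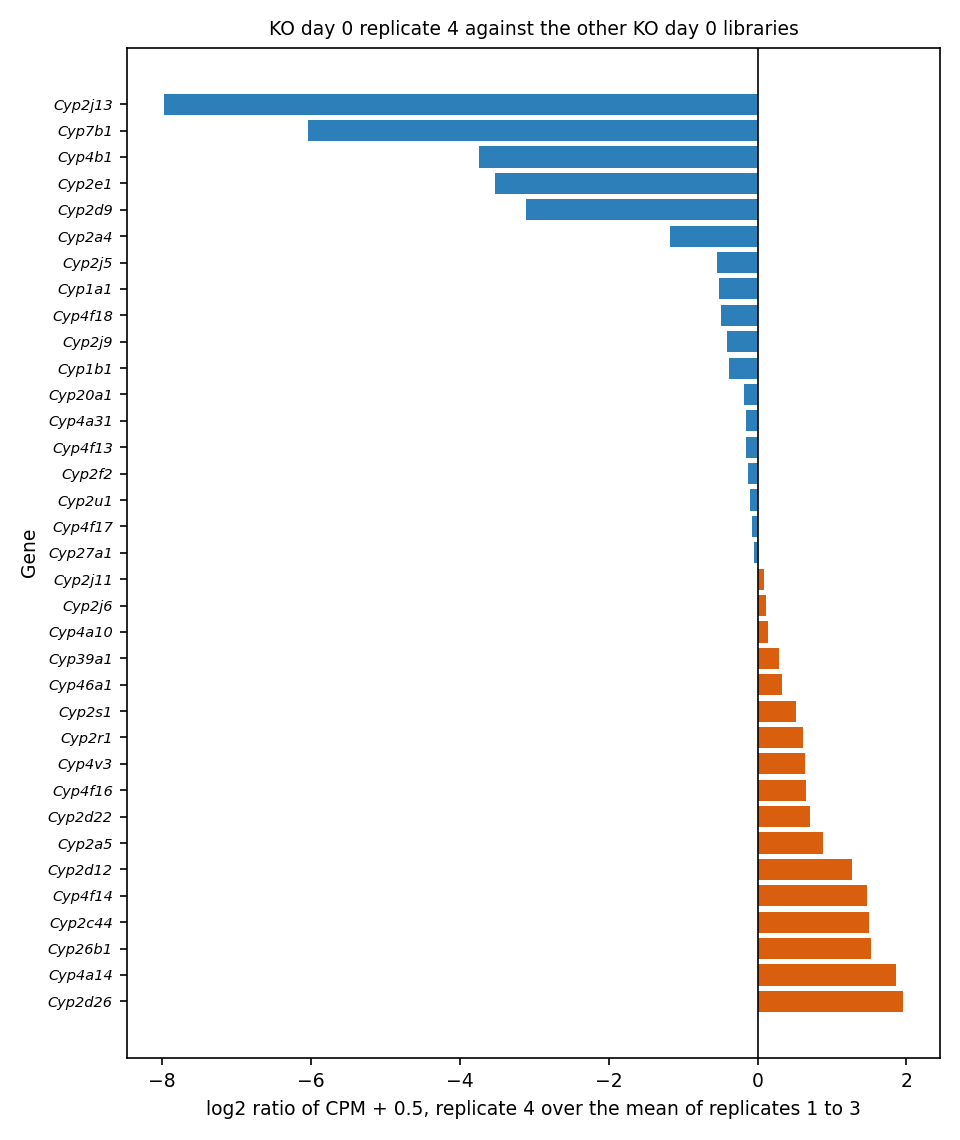
Log2 ratio of CPM + 0.5 in KO day 0 replicate 4 over the mean of KO day 0 replicates 1 to 3, for 35 P450 genes with a mean of at least 1 CPM. Bars to the left are lower in replicate 4, with Cyp2j13 and Cyp7b1 the furthest, and bars to the right are higher, with Cyp2d26 and Cyp4a14 the furthest.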

How the data were processed

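Mouse kidney RNA was sequenced in 24 libraries (TruSeq stranded mRNA, per the labels' protocols). Raw counts per gene were deposited by the authors, as was a table of FPKM values. The submitters' processing notes name bcl2fastq 2.16, STAR 2.5, Cufflinks and mm9; how reads with several matches were counted is not given in the sources used here. Counts were tested with edgeR 4.0.16 (quasi-likelihood, TMM scaling, 6 group means, 18 residual degrees of freedom, R 4.3.3) on 15080 genes with a count of at least 10 by group size and 15 in all, with Benjamini-Hochberg adjustment over all of them in each of 11 comparisons. The SE is the log2 change over the square root of F. Alternatives were RLE scaling, DESeq2 1.42.0, other filters, limma 3.58.1 on log2(FPKM + 1) and log2(FPKM + 0.1) for genes with at least 1 FPKM in 4 libraries, only the groups compared, a replicate block, Xist as a covariate, and libraries left out. The set of 3 libraries left out was chosen after seeing the data. The tests were first run on simulated data.

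The members and lists were chosen with earlier results of these data known. Genes named were the highest of a subfamily, those with the largest called changes, all tested sterol, steroid and retinoid P450 genes, and partner genes; Cyp4a31, Cyp4a32, Cyp2j6, Cyp2j11, Cyp2s1, Cyp1a1, Ppara and the genes set beside single libraries were chosen after their values were seen. Correlations of the deviations of same-numbered libraries were over 0.1 in all 4 pairs only between day 10 and day 5 in WT (0.125 to 0.381) and between KO and WT at day 10 (0.164 to 0.327). Promoters and transcripts were from RefSeq (GRCm38.p6) and GENCODE M21 and were used for sequence and names only. Figures used Python 3.11.15 and matplotlib 3.10.9.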

Additional observations from a re-analysis of the deposited data

Results flagged for a closer look

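Among 258 groups of 4 libraries, 17 held a library whose distance from its nearest neighbour exceeded the Dixon limit of 0.829 of the group's range in log2(CPM + 0.5), a rule that chance alone meets in some groups. KO day 0 replicate 4 accounted for 4 of them, with Cyp2d26 at 478 CPM against 114 to 136 CPM in the other 3, Cyp2d9 at 29.9 against 229 to 316 CPM, Cyp2j13 at 1.48 against 346 to 658 CPM and Cyp7b1 at 7.25 against 434 to 597 CPM. WT day 0 replicate 4 stood apart for Cyp7b1 (989 against 694 to 736 CPM), Cyp2r1 (1.55 against 2.25 to 2.38 CPM) and Cyp46a1 (1.72 against 2.08 to 2.15 CPM), and replicate 1 for Cyp2j5 (2755 against 2597 to 2619 CPM). WT day 10 replicate 4 did for Cyp7b1 (233 against 34.7 to 45.2 CPM) and Cyp4f14 (0.688 against 0.0507 to 0.0948 CPM). WT day 5 replicate 4 did for Cyp2d22 (33.0 against 62.8 to 68.3 CPM) and Cyp4v3 (21.2 against 25.97 to 27.02 CPM). KO day 10 replicate 4 did for Cyp26a1 (0.683 against 0.529 to 0.538 CPM) and Cyp4f13 (31.2 against 28.8 to 28.9 CPM). KO day 5 replicate 1 did for Cyp4a32 (0.758 against 0.276 to 0.295 CPM) and Cyp4f14 (0.350 against 1.00 to 1.08 CPM), and KO day 0 replicate 1 for Cyp4f39 (0.601 against 0.229 to 0.239 CPM). Several of these gaps, such as those of Cyp2j5 and Cyp4f13, are small beside the level because the other 3 libraries lie close together.

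The response to obstruction differed between KO and WT by the interaction test for Cyp1b1 at day 5 (-1.66) and day 10 (-1.59), Cyp2d22 at day 5 (-1.64), and Cyp26b1 (-6.01) and Cyp4f18 (-4.51) at day 10.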

How the results depend on the processing

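The 4 counts of members called after obstruction stayed within 1.5 times the reported count under every alternative, except that at day 5 in KO, which was 22 by limma on log2(FPKM + 1) with no filter and with only the groups compared, 24 without WT day 10 replicates 2 and 3 and 26 without the 3 libraries that stood apart. The small counts moved more. Between day 10 and day 5 in WT the count was 5 by DESeq2 and with the replicate block, 7 on either filtered FPKM scale, 1 with no low-count filter and on log2(FPKM + 1) with no filter, and 0 with only the groups compared and without the libraries that stood apart. For KO against WT at day 0 it was 4 by DESeq2, 6 with only the groups compared and without WT day 10 replicates 2 and 3, and 1 by unfiltered FPKM and with Xist as a covariate. At day 5 it was 1 without WT day 10 replicates 2 and 3 and 2 without the 3 libraries. At day 10 it was 0 on both filtered FPKM scales, with only the groups compared, with the replicate block and without the libraries that stood apart. For the genotype difference at day 5 it was 0 on log2(FPKM + 1), filtered or not, and 1 on log2(FPKM + 0.1) and with Xist as a covariate. For that at day 10 it was 0 on log2(FPKM + 1), filtered or not, and with only the groups compared, and 1 without the libraries that stood apart. The cause was not tested.

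With 1 library left out, the counts ranged over 12 to 24 and 22 to 28 at day 5 and day 10 in KO, 19 to 25 and 28 to 35 in WT, 0 to 0 and 0 to 24 for day 10 against day 5 in KO and in WT, 1 to 4, 0 to 4 and 0 to 11 for KO against WT at day 0, 5 and 10, and 0 to 2 and 3 to 7 for the genotype difference at day 5 and day 10. With the replicate block 12 further calls of single genes were gained and 3 lost over all comparisons.

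Directions reversed on the FPKM scales, where the median of all genes moved up after obstruction. With log2(FPKM + 1), filtered or not, Cyp2j6 was 0.49 at day 5 in KO and 0.011 at day 10 in WT, Cyp4f13 was 0.11 and 0.053 at day 5 in KO and in WT, Cyp2r1 was 0.054 at day 5 in WT and Cyp39a1 0.37 at day 10 in WT. At day 5 in WT Cyp2j6 was also 0.40, with an adjusted p of 0.0296 by limma with the filter. With log2(FPKM + 0.1) these were 0.52 and 0.0078 for Cyp2j6, 0.12 and 0.056 for Cyp4f13, 0.12 for Cyp2r1, 0.46 for Cyp39a1 and 0.43 for Cyp2j6 at day 5 in WT. Without WT day 10 replicates 2 and 3, and without all 3 libraries, Cyp4f18 was -0.14 for day 10 against day 5 in WT and 0.26 for KO against WT at day 10. Depth limits Cyp2b10, Cyp2f2, Cyp4f14, Cyp4f15, Cyp3a13 and Cyp4a32, among others, which had a few CPM or less.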

Other observations

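Other enzymes that share substrates with the P450 family moved in both directions. Aldh1a2, which makes the retinoic acid that Cyp26 enzymes break down, was 72.1, 96.7, 125 and 68.6 CPM at day 5 and 65.2, 82.5, 107 and 65.9 CPM at day 10 in KO, against 3.35, 4.89, 2.59 and 14.7 CPM at day 0. In WT it was 69.4, 65.2, 74.2 and 63.0 CPM at day 5 and 111, 223, 99.4 and 51.9 CPM at day 10, against 1.82, 2.38, 2.42 and 1.203 CPM at day 0. It rose by 3.81 ± 0.46 and 3.64 ± 0.46 in KO and by 5.11 ± 0.51 and 5.95 ± 0.52 in WT on the log2 scale. Of 11 tested retinoid genes 6 were higher and 1 lower at day 5 and 5 and 2 at day 10 in KO, and 6 and 0 at day 5 and 7 and 2 at day 10 in WT. Of 8 tested epoxide hydrolase and eicosanoid genes 1 was higher and 0 lower at day 5 and 2 and 2 at day 10 in KO, and 2 and 1 at day 5 and 5 and 1 at day 10 in WT. Among all genes tested 22.4% were higher and 17% lower at day 5 and 28.3% and 26% at day 10 in KO. In WT they were 31% and 25.6% at day 5 and 37.8% and 30.3% at day 10. With all libraries, and apart from those higher at day 10 in WT, the eicosanoid shares were near or below these. Ephx2, which hydrolyses the epoxides that Cyp2j and Cyp2c enzymes make, was lower at day 10 in KO (-1.41 ± 0.41) and at day 5 and day 10 in WT (-1.39 ± 0.41 and -2.55 ± 0.43). At day 5 in KO the count of eicosanoid genes higher was 5 without the 3 libraries that stood apart. In that fit 46% of all genes were called in either direction, and the share higher is not given.

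Cholesterol synthesis genes were lower in 4 and 9 of 12 cases at day 5 and day 10 in KO and in 9 and 9 in WT, with none higher. Of 15 tested Phase II and related enzymes, 0 were higher and 6 lower at day 5 and 2 and 10 at day 10 in KO, and 2 and 5 at day 5 and 1 and 10 at day 10 in WT. Over these comparisons 22.4% to 37.8% of all genes tested were higher and 17% to 30.3% lower, so the share of Phase II genes lower at day 5 in WT, 5 of 15, was near the background. Fmo1, a flavin monooxygenase that oxidises drugs beside the P450 enzymes, fell in all 4 comparisons (-1.37 ± 0.39 and -1.91 ± 0.40 in KO, and -0.93 ± 0.39 and -2.01 ± 0.40 in WT, at day 5 and day 10). Cyp51, a cholesterol synthesis P450 outside the naming rule, was 98.4 to 129.9 CPM at day 5 and 35.4 to 116 CPM at day 10 in KO, against 405 to 652 CPM at day 0, and in WT 51.3 to 183 and 29.8 to 195 CPM against 578 to 659 CPM.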
